A study of Mus musculus with 11 samples.

Results

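The miR-30 family was followed across 11 microarrays of mouse mammary glands and mammary tumors. Members were taken by name, as every mouse miRNA on the array called miR-30 with a letter from a to e, whatever its arm. This gave 5 of the 334 mouse miRNAs with plus-strand spots, namely mmu-miR-30a-5p, mmu-miR-30b, mmu-miR-30c, mmu-miR-30d and mmu-miR-30e (the species prefix mmu is left out below), each printed in 4 spots. The opposite arms of these hairpins were not analysed here.

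The miRNAs of this family differ in their 3′ portions and share the seed, the stretch that pairs with target mRNAs, so they are predicted to have many targets in common. In breast and mammary cells the family is known for repressing UBC9, a SUMO-conjugating enzyme, and integrin β3 in tumor-initiating cells, and for restraining factors of the epithelial-mesenchymal transition such as SNAI1. miR-30b has also been studied in the mouse mammary gland, where its forced expression disturbed lactation and involution.

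The arrays held 2 glands of FVB females, 3 of Balb/C females and 3 of females of the mixed FVB129B6 background, together with 3 primary tumors of C3(1)/Tag females, which are FVB mice. The glands were normal tissue and, per the methods of the study, came from females late in pregnancy, when the gland is rich in epithelium. C3(1)/Tag mice carry the SV40 T/t antigens under the C3(1) promoter of a rat prostatic steroid-binding protein gene, which is active in mammary epithelium. None of the glands carried this transgene. The titles of Balb/C replicates 2 and 3 could name 2 glands of the same mouse, so p-values measure the spread between these samples, which may be partly technical. All 8 gland arrays lay on 1 slide, where the FVB arrays had a column of their own, while the tumors were hybridized on a different slide and read with an older version of the extraction program. Of cell type lists, the 10 epithelial miRNAs (miR-200a, miR-200b, miR-200c, miR-141, miR-429, miR-205, miR-203, miR-183, miR-96 and miR-182) were all well above background on every gland array, and so were all 3 skeletal muscle, all 4 stromal and smooth muscle and all 6 blood and lymphoid miRNAs measured. Of the epithelial list 2, 1 and 5 were well above background on the 3 tumor arrays.

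The mature sequences are shown because they carry the feature that defines the family. RefSeq sequences of build GRCm38.p6 were found for 3 of the 5 members, and the seed, bases 2 to 8, is in capitals.
miR-30a-5p: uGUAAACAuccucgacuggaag
miR-30c: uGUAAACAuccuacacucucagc
miR-30e: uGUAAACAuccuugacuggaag
The mature miR-30a-5p lies at chr1:23272274-23272295 on the plus strand, in the gene Mir30a. miR-30c is made from a pair of genes with the same mature sequence, Mir30c-2 at chr1:23291714-23291736 on the plus strand and Mir30c-1 at chr4:120769584-120769606 on the minus strand. miR-30e lies at chr4:120772660-120772681 on the minus strand. Mir30a thus neighbours Mir30c-2, and Mir30e neighbours Mir30c-1, the latter pair inside the protein-coding gene Nfyc, a subunit of the transcription factor NF-Y. Mir30b and Mir30d neighbour each other elsewhere.

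The stretches of the 5 array probes that pair with the miRNAs show how far the members can be told apart by hybridization. They are written 5′ to 3′, with the complement of the seed in capitals.
miR-30a-5p: cttccagtcgaggaTGTTTACa
miR-30b: agctgagtgtaggaTGTTTACa
miR-30c: gctgagagtgtaggaTGTTTACa
miR-30d: cttccagtcggggaTGTTTACa
miR-30e: tccagtcaaggaTGTTTACa
All 5 probes carried the complement of the seed, and no other of the 334 mouse probes did. The miR-30a-5p and miR-30d probes were 1 base edit apart, miR-30a-5p and miR-30e 3 edits, and miR-30b and miR-30c 3 edits, while every other pair of members was 4 to 8 edits apart. The nearest probe outside the family was 8 to 10 edits away. Cross-hybridization between members this close was not tested. The miR-30e stretch, of 20 bases, matches only the start of the 22 bases of its miRNA, whereas the miR-30a-5p and miR-30c stretches match the whole miRNA.

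All 5 members gave strong green (Hy3) signal in the glands and background signal in the tumors. In the glands, all 160 member spots were called well above background by the extraction program, and the median intensity of the 4 spots ran from 2785 to 89800 over members and arrays. On the 3 tumor arrays 1 of 60 member spots was called so, a miR-30b spot of 1270 on the array of tumor 2, and the medians ran from 108 to 281. The 4 spots of a member were close on the gland arrays, with a median SD of 0.047 on the log2 scale, and further apart on the tumor arrays, where it was 0.409. Over all 334 miRNAs on the gland arrays it was 0.092. The program marked no green spot as saturated.

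**Figure D1:**
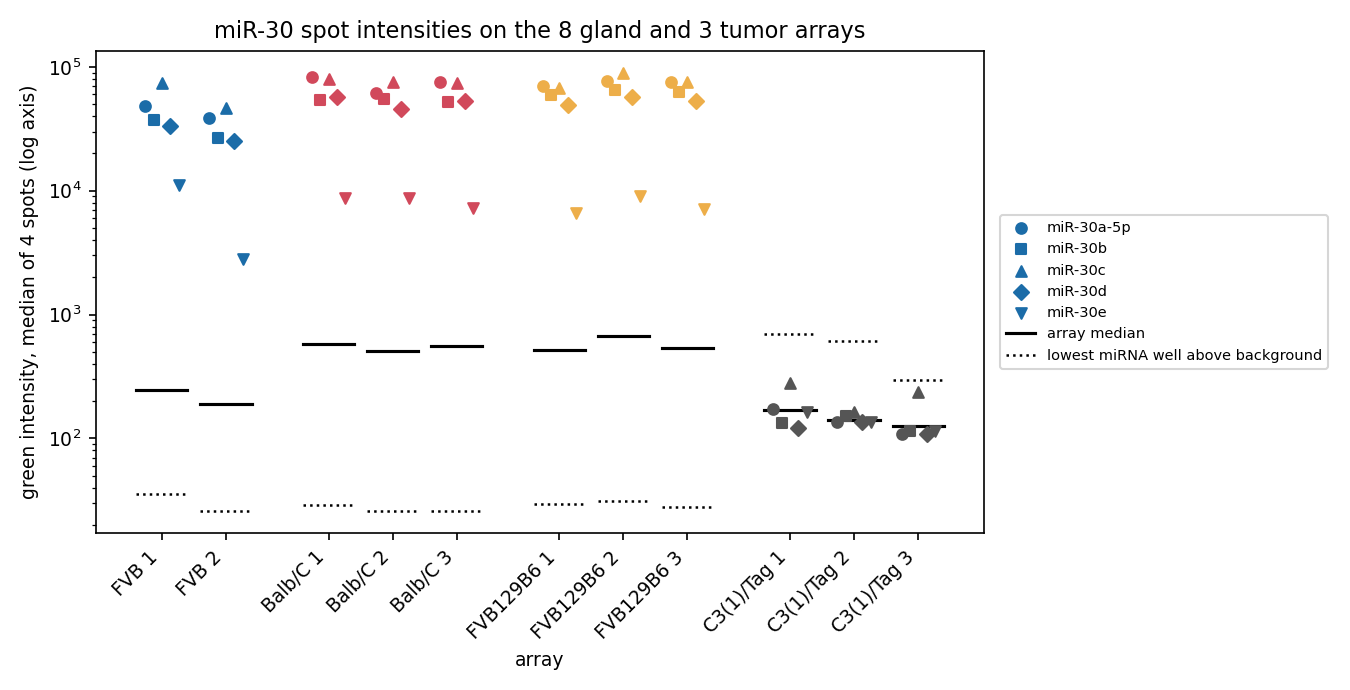
Median green intensity of the 4 spots of each miR-30 member (y axis, log scale) on each of the 11 arrays (x axis), with the array's median over all mouse spots as a solid line and the lowest miRNA called well above background as a dotted line. On the 8 gland arrays every member lies above both lines, at 2785 to 89800, and on the 3 tumor arrays every member lies below the dotted line, at 108 to 281.

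Levels below are log2 green signals minus the median of the array, averaged over the spots of a miRNA, so that 0 is the array's median. Well above background means that the program called 50% or more of the spots of a miRNA so, and the 261 miRNAs that met this on at least 3 arrays were tested, among them all 5 members. Whether members differed among the glands of the 3 strains was asked first. In a moderated F-test with limma and Benjamini-Hochberg adjustment, 4 of the 5 members were called at an adjusted p under 0.05, against 120 of all 261 miRNAs tested, or 46.0%. The exception was miR-30e, at an adjusted p of 0.17 by limma. With this share of all miRNAs called, the count of members is not a result about the family. The share of all miRNAs whose FVB arrays stood apart from the others was not counted. Separations of FVB given below are therefore a description and not a trait of the family. The directions given next are relative to the array median, and for all 5 members they turned in the unscaled signal.

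miR-30c, the member with a pair of genes, differed most between strains among the called members. Its levels were 8.25 and 7.97 on the FVB arrays, 7.12, 7.22 and 7.06 on the Balb/C arrays, and 6.99, 7.08 and 7.15 on the FVB129B6 arrays. Both FVB arrays were above all 6 others, and the Balb/C and FVB129B6 arrays overlapped. Relative to the array median, miR-30c fell by 0.98 ± 0.16 (SE) from FVB to Balb/C glands (limma adjusted p = 0.0056) and by 1.04 ± 0.16 from FVB to FVB129B6 glands (limma adjusted p = 0.0036).

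miR-30a-5p, which shares its neighbourhood with Mir30c-2, had levels of 7.60 and 7.67 in FVB glands, 7.14, 6.92 and 7.05 in Balb/C glands, and 7.05, 6.85 and 7.13 in FVB129B6 glands. The FVB arrays again stood above the rest without overlap. It fell by 0.60 ± 0.16 in Balb/C (limma adjusted p = 0.024) and by 0.63 ± 0.16 in FVB129B6 glands (limma adjusted p = 0.019) against FVB. With Balb/C replicates 2 and 3 averaged, the Balb/C call was lost, at a difference of -0.57 (limma adjusted p = 0.054).

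miR-30d, whose probe is the one that differs from that of miR-30a-5p by 1 base, stood at 7.11 and 7.08 in FVB, at 6.61, 6.51 and 6.58 in Balb/C, and at 6.56, 6.42 and 6.63 in FVB129B6 glands. FVB was again separate from both other strains, by -0.53 ± 0.15 for Balb/C (limma adjusted p = 0.026) and -0.56 ± 0.15 for FVB129B6 (limma adjusted p = 0.021). The Balb/C call of miR-30d was also lost with Balb/C replicates 2 and 3 averaged, at -0.52 (limma adjusted p = 0.055).

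miR-30b, its genomic neighbour, stood at 7.25 and 7.14 in FVB, at 6.51, 6.74 and 6.53 in Balb/C, and at 6.81, 6.60 and 6.86 in FVB129B6 glands. The FVB arrays were highest here too, by a margin that was smaller against FVB129B6. miR-30b fell by 0.60 ± 0.17 from FVB to Balb/C (limma adjusted p = 0.024), whereas the difference of -0.44 ± 0.17 between FVB129B6 and FVB did not pass (limma adjusted p = 0.065).

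miR-30e was the member whose replicates were furthest apart. Its levels were 5.51 and 3.88 on the 2 FVB arrays, 3.91, 4.07 and 3.69 on the Balb/C arrays and 3.67, 3.74 and 3.72 on the FVB129B6 arrays. FVB replicate 1 stood alone above every other array, and FVB replicate 2 lay among the Balb/C arrays. The SD within FVB was 1.15, compared with 0.19 within Balb/C and 0.035 within FVB129B6. The differences from FVB, -0.81 ± 0.42 for Balb/C (limma adjusted p = 0.16) and -0.99 ± 0.42 for FVB129B6 (limma adjusted p = 0.091), did not pass. They rested on 1 array: without FVB replicate 2 they were -1.62 and -1.80 (limma adjusted p = 0.0047 and 0.0024), and without FVB replicate 1 they were 0.0098 and -0.17.

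**Figure D2:**
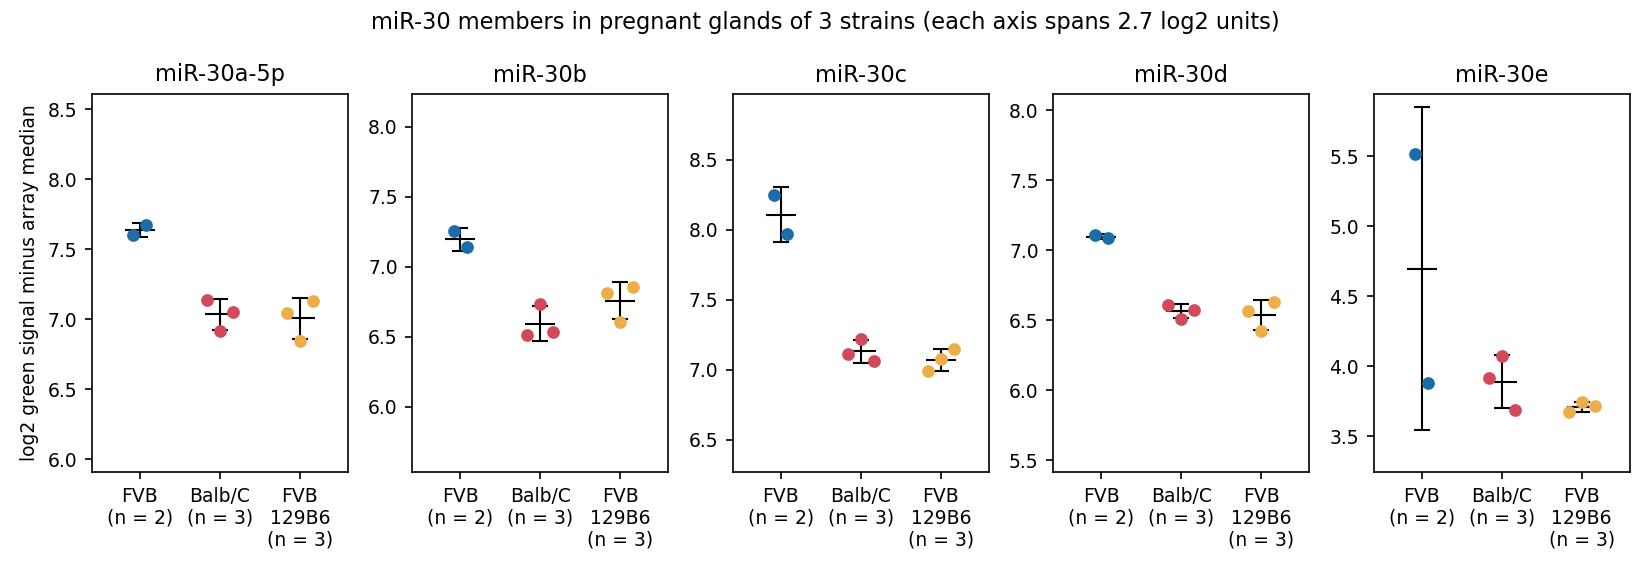
Level of each miR-30 member (log2 green signal minus the array median, y axis) in FVB (n = 2), Balb/C (n = 3) and FVB129B6 (n = 3) glands, with 1 point per array and bars for the mean and SD. For miR-30a-5p, miR-30b, miR-30c and miR-30d both FVB points lie above all others on this scale (below them without scaling, or overlapping for miR-30c), whereas for miR-30e the FVB points stand at 5.51 and 3.88. The share of all miRNAs with FVB apart in this way was not counted.

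Counted by contrast and relative to the array median (the signs turned without scaling), Balb/C glands had 4 of 5 members lower than FVB and none higher, where 37.9% of the 261 miRNAs were called, 32.2% lower and 5.75% higher. Between FVB129B6 and FVB glands 3 of 5 were lower and none higher, where 39.5% of all were called, 31.4% lower and 8.05% higher. The median difference of the members was -0.60 for Balb/C and -0.63 for FVB129B6, beside medians of -0.48 and -0.39 over all 261 miRNAs. These contrasts share the 2 FVB arrays. Leaving out single arrays left 1 to 4 members called in Balb/C and 1 to 3 in FVB129B6. Balb/C and FVB129B6 glands were close, with 0 of 5 members called by limma, 0 of 5 also at an unadjusted p under 0.05, and 3.45% of all miRNAs called, 1.15% higher and 2.30% lower in Balb/C. The members' differences between these strains ran from -0.16 ± 0.15 (miR-30b) to 0.18 ± 0.37 (miR-30e), with a median of 0.026.

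The strain differences of the members were tied to how the arrays were scaled. The median spot intensity, which sets the zero of the scale, was 245.5 and 188.5 on the FVB arrays and 508 to 671.5 on the other gland arrays. Before scaling, the median intensity of the miR-30a-5p spots was 48000 and 38850 on the FVB arrays and 62050 to 82250 on the other 6, so the unscaled signal was lower, not higher, in FVB. The same held for miR-30b, with 37550 and 26450 in FVB against 51950 to 65300, and for miR-30d, with 33500 and 25400 against 45750 to 57650. Unscaled miR-30c signal, 74650 and 46950 in FVB against 67800 to 89800, overlapped.

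With each array's 75th percentile as the zero, the median over all 261 miRNAs moved to -0.050 for Balb/C and -0.025 for FVB129B6 against FVB, and that of the members to -0.17 and -0.26. Then 0 of 5 members were called by limma in Balb/C and 1 of 5, miR-30c, in FVB129B6 glands. As the share of all miRNAs called at this zero is not given, these counts are not a result about the family. The difference of miR-30c was -0.54 for Balb/C and -0.67 for FVB129B6 with the 75th percentile (limma adjusted p = 0.061 and 0.026) and -0.57 and -0.56 with quantile normalization (limma adjusted p = 0.044 and 0.031). Both calls were lost with the median of miRNAs well above background, at -0.53 and -0.51 (limma adjusted p = 0.086 and 0.092). They were also lost with a normexp background, at -0.28 and -0.40 (limma adjusted p = 0.18 and 0.071). With green over red the differences were -0.37 and -0.32 (limma adjusted p = 0.14 and 0.21). The red channel also held signal of the members, so this ratio can take out a difference that both channels share. Over 24 alternative settings, most of which kept the array median as the zero, miR-30c was lower in 23 and called in 19 for Balb/C. For FVB129B6 it was lower in 23 and called in 20. The exception in direction in each contrast was the unscaled signal. miR-30a-5p was called in 14 and 16 of the 24 settings, 1 of them with the opposite sign in each contrast, the unscaled signal. miR-30d was called in 11 and 14 and lower in 20 and 21. miR-30b was called in 12 and 5 and lower in 22 and 19, and miR-30e was called in 1 and 1. For miR-30b and miR-30d the calls in the unscaled signal also had the opposite sign.

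**Figure D3:**
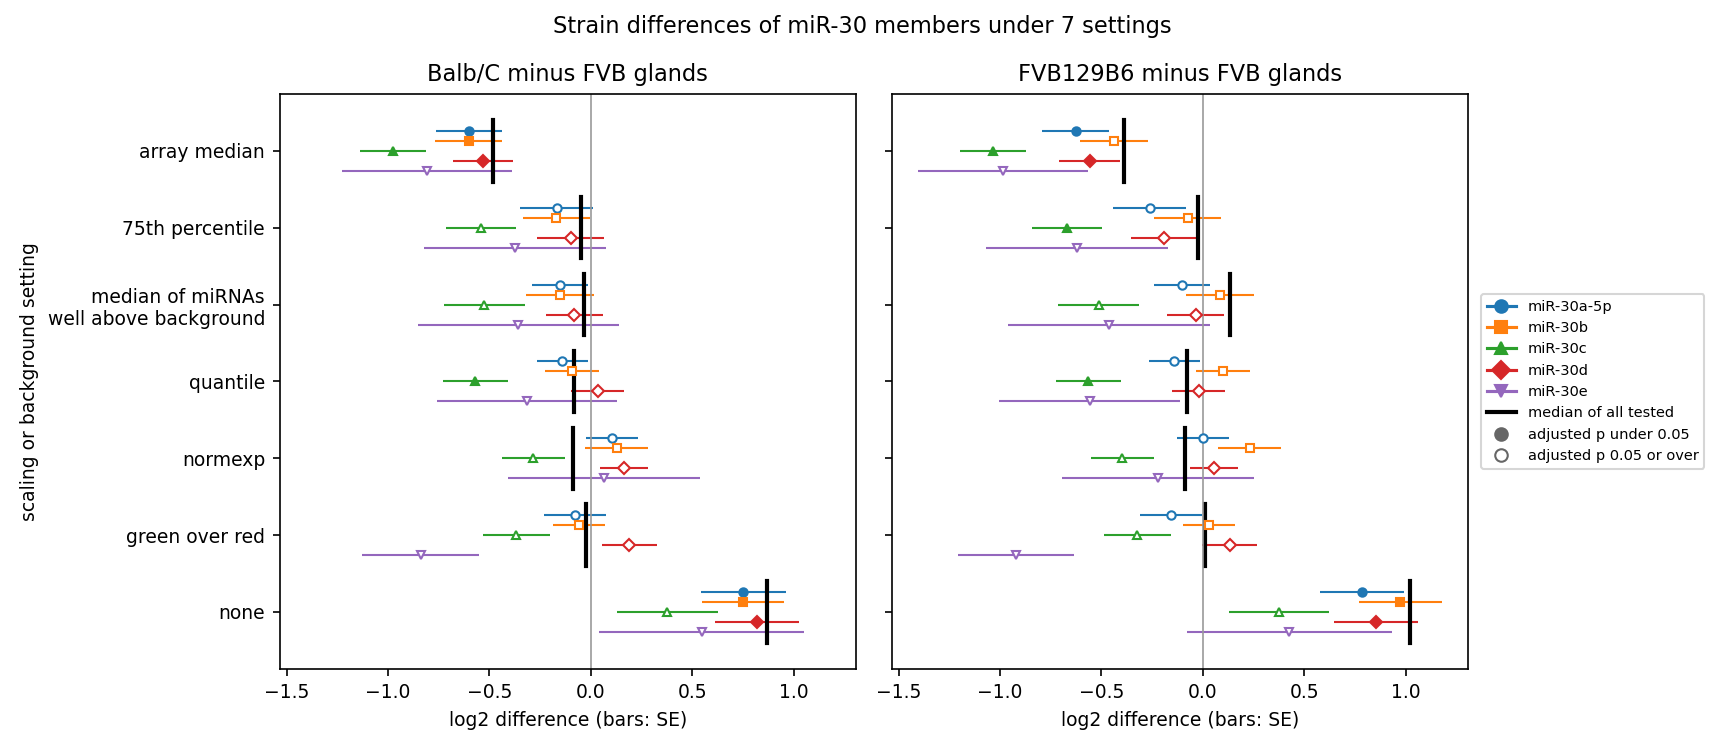
Log2 difference of each miR-30 member from FVB (x axis, bars are the SE) for Balb/C and FVB129B6 glands under 7 scaling or background settings (y axis), with filled symbols for an adjusted p under 0.05 and a black line for the median over all miRNAs tested. From the array median to no scaling the members move with the black line, from a median of -0.60 to 0.75 for Balb/C. With normexp they do not follow it. There the member median was 0.10 for Balb/C and 0.00026 for FVB129B6, beside -0.088 over all miRNAs tested in each contrast.

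Differences between members on the same array do not depend on the zero of the scale, and 3 pairs were compared between strains by an exact permutation F test, which has no direction, over the 560 assignments of the 8 arrays, where the smallest possible p was 0.0036. The genomic neighbours miR-30b and miR-30d differed by 0.15 and 0.055 in FVB, -0.097, 0.23 and -0.041 in Balb/C, and 0.25, 0.18 and 0.23 in FVB129B6 glands. Both FVB arrays lay below all 3 FVB129B6 arrays, and Balb/C overlapped each of them. The exact permutation p was 0.19 (0.28 after Benjamini-Hochberg adjustment over the 3 pairs), and without Balb/C replicate 2 the adjusted p was 0.029 (exact permutation).

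For miR-30a-5p minus miR-30c the differences were -0.65 and -0.30 in FVB, 0.023, -0.31 and -0.012 in Balb/C, and 0.056, -0.23 and -0.017 in FVB129B6 glands. FVB had the lowest mean, -0.47 ± 0.25 (SD, n = 2), against -0.098 ± 0.18 (n = 3) and -0.063 ± 0.15 (n = 3), but Balb/C replicate 2 lay between the FVB arrays (exact permutation p = 0.16, adjusted p = 0.28).

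For miR-30e minus miR-30c, neighbours in the case of Mir30e and Mir30c-1, they were -2.73 and -4.09 in FVB, -3.20, -3.15 and -3.37 in Balb/C, and -3.32, -3.33 and -3.43 in FVB129B6 glands. The FVB arrays bracketed all 6 others (exact permutation p = 0.81, adjusted p = 0.81). The spread of miR-30e between the FVB arrays was thus present within the arrays and was not removed by scaling. The size of a difference between probes also holds their unequal hybridization, so only its change between strains is of interest here.

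**Figure D4:**
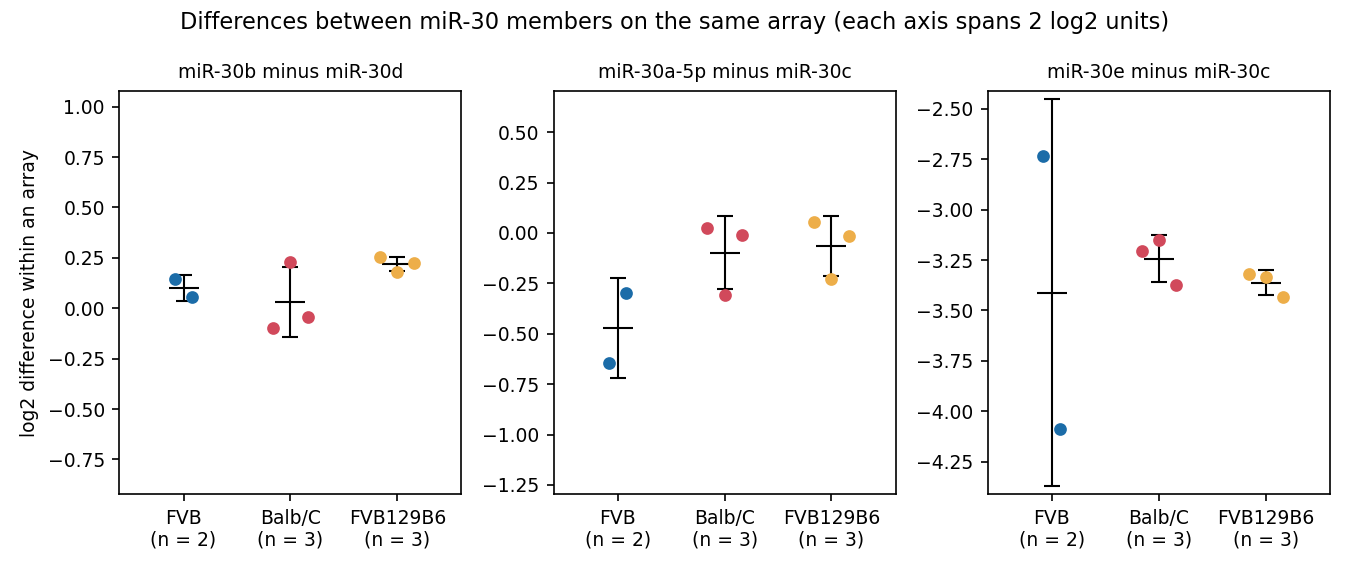
Log2 difference between a pair of miR-30 members on the same array (y axis) by strain, for 3 pairs, with 1 point per array and bars for the mean and SD. For miR-30b minus miR-30d the Balb/C points overlap those of both other strains, while FVB lies below FVB129B6, and the 2 FVB points of miR-30e minus miR-30c, at -2.73 and -4.09, lie on either side of all others.

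The 5 miRNAs outside the family whose gland profiles were most like the mean of the members were let-7f, miR-27a, miR-23a, miR-23b and miR-194. Likeness was the root mean square difference, over the 8 gland arrays, between profiles centred on their own means, and the mean profile holds the members themselves. It was 0.081 for let-7f, 0.091 for miR-27a, 0.094 for miR-23a, 0.097 for miR-23b and 0.12 for miR-194, where the median over all 261 miRNAs was 0.43. The profile they shared was high on both FVB arrays and low on the rest. The mean of the members stood at 0.74 and 0.34 on the FVB arrays and between -0.27 and -0.11 on the other 6. As they were chosen for this profile, their differences from FVB, which ran from -0.53 ± 0.16 (miR-27a, FVB129B6) to -0.97 ± 0.17 (miR-194, Balb/C), are given as a description. How high these miRNAs stood on the FVB arrays depends on the scale, as for the members, whereas the difference between a pair of profiles does not.

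**Figure D5:**
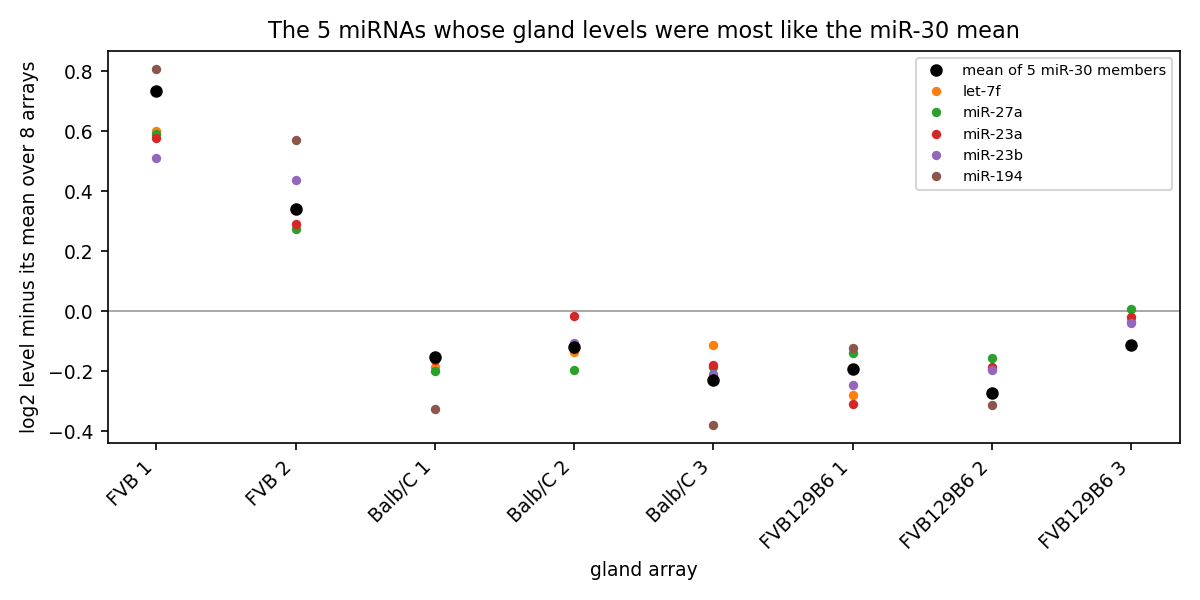
Log2 level minus its mean over the 8 gland arrays (y axis) for the mean of the 5 miR-30 members and for the 5 other miRNAs most like it, on each gland array (x axis). All 6 are highest on the FVB arrays, where the miR-30 mean stands at 0.74 and 0.34.

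Among the marker lists skeletal muscle stood apart in its direction relative to the array median. The direction of a list depends on this zero, which moves all miRNAs together. With the 75th percentile as the zero, the summed muscle level was -0.37 and 1.86 in FVB and 4.80 to 6.40 in the other glands. With the array median as the zero, the median differences of the epithelial, blood and stromal lists were -0.98, -0.36 and -0.47 for Balb/C and -0.27, -1.75 and -0.40 for FVB129B6 against FVB, below 0 like those of the miR-30 members on this scale. No size is given for the endothelial list. Its 1 miRNA on the array, miR-126-5p, was not well above background on FVB replicate 2 and Balb/C replicate 3. Skeletal muscle miRNAs (miR-1, miR-206 and miR-133b were on the array, of 4 listed) were higher in Balb/C and in FVB129B6 than in FVB glands in 3 of 3 cases each, with median differences of 5.32 and 4.15, beside 5.75% and 8.05% of all miRNAs called higher. The summed muscle level, with the array median as the zero, was 3.64 and 6.02 in FVB, 9.97, 9.95 and 9.17 in Balb/C, and 8.45, 8.60 and 8.62 in FVB129B6 glands, with miR-133b giving the highest signal. All 3 muscle miRNAs were well above background on every gland array. miR-30 members are found in many tissues, muscle included, and on the array-median scale the members were lower where muscle miRNAs were higher, an order that turned for the members in the unscaled signal. In bulk tissue fewer cells of a type and less RNA per cell cannot be told apart.

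Of 6 blood and lymphoid miRNAs on the array (miR-451, miR-144, miR-486, miR-150, miR-142-5p and miR-223, of 7 listed), 1 was lower in Balb/C and 3 were lower in FVB129B6 than in FVB glands, beside 32.2% and 31.4% of all miRNAs tested. Their summed level was 9.66 and 9.72 in FVB, 8.43, 9.56 and 7.93 in Balb/C, and 7.27, 7.25 and 7.76 in FVB129B6 glands, led by the erythroid miR-451. Of the 10 epithelial miRNAs, 5 were lower in Balb/C and 2 in FVB129B6 than in FVB glands. Relative to the array median, as for these counts, 32.2% and 31.4% of all 261 miRNAs were called lower. With the 75th percentile as the zero, the summed epithelial level was 5.01 and 5.78 in FVB, 5.14, 4.44 and 5.40 in Balb/C, and 5.58, 5.30 and 5.57 in FVB129B6 glands. With the array median as the zero it was 9.02 and 9.93 in FVB, 8.71, 8.18 and 9.04 in Balb/C, and 9.23, 9.01 and 9.36 in FVB129B6 glands, led by miR-200a or miR-200b. Of the 4 stromal and smooth muscle miRNAs (miR-143, miR-145, miR-199a and miR-214), 0 were called in a strain contrast by limma, with 2 at an unadjusted p under 0.05 in each contrast with FVB and 0 between Balb/C and FVB129B6. The endothelial miR-126-5p, the 1 of 2 listed on the array, was not called either. The stromal summed level was 9.57 and 10.2 in FVB, 9.31, 9.12 and 9.54 in Balb/C, and 9.25, 9.18 and 9.43 in FVB129B6 glands, led by miR-143. The part of these cell types in the differences of the miR-30 members was not tested.

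The C3(1)/Tag tumors were then set against the glands. Median green intensities of the 4 spots on the arrays of tumors 1, 2 and 3 were 173, 135 and 109.5 for miR-30a-5p, 132, 152.5 and 114 for miR-30b, 281, 164.5 and 239 for miR-30c, 120.65, 135.5 and 108 for miR-30d, and 164, 135 and 114.5 for miR-30e. The medians of the same arrays over all mouse spots were 170, 140 and 125. Among the miRNAs of an array, the percentiles of the members ran from 0.60 (miR-30d, tumor 1) to 87.1 (miR-30b, tumor 2). In no tumor was a member well above background in green. The lowest levels on glands were 6.85, 6.51, 6.99, 6.42 and 3.67 for miR-30a-5p, miR-30b, miR-30c, miR-30d and miR-30e, and the highest on tumors, all at background, were -0.039, 0.83, 0.77, 0.055 and 0.035. The lowest miRNA called well above background on a tumor array stood at up to 2.13. With the 75th percentile as the zero, the lowest gland level of miR-30e, -0.28, was close to its highest tumor level of -0.31.

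All 5 members passed the filter on low signal through the gland arrays alone, so a lower tumor signal was given by the filter and their calls are a description. In a limma fit over the 4 groups all 5 were called lower in tumors than in the mean of the 3 strains, and all 5 lower than in FVB glands, the strain of the tumors. Of all 261 miRNAs tested, 90.4% were called against the mean of the strains, 52.5% lower and 37.9% higher in tumors, and 88.1% against FVB glands, 52.5% lower and 35.6% higher. The largest adjusted p among the members was 1.1e-07 for the mean of the strains and 6.5e-07 for FVB glands (miR-30e in both, limma). The median difference over all miRNAs tested was -0.83 and -1.04 with the array median as the zero and 2.14 and 2.20 with the 75th percentile. With green over red, miR-30e was not called against the mean of the strains (limma adjusted p = 0.68), nor miR-30d and miR-30e against FVB. In that setting miR-30a-5p, miR-30b, miR-30c, miR-30d and miR-30e differed by -0.47, -0.80, -0.71, -0.83 and -0.10 from the mean of the strains. From FVB glands they differed by -0.55, -0.81, -0.94, -0.73 and -0.69. The green signals in these tumor ratios were at background, and 6 of 60 member spots on tumor arrays were well above background in red. On gland arrays all 160 were, so the ratio can take out a difference that both channels share.

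Because the members were not measurable in the tumors, the difference of their signal from the glands can only be bounded, and only for a given scaling. On each tumor array the dimmest miRNA called well above background set a minimum, and a member below it was raised to it. With the array median as the zero, miR-30a-5p was then at least 43.2-fold below the mean of the strains. The bounds were 33.2-fold for miR-30b, 50-fold for miR-30c, 30.6-fold for miR-30d and 4.94-fold for miR-30e. Against FVB glands they were 57.3-fold for miR-30a-5p and 42.3-fold, 79.5-fold, 39.4-fold and 7.48-fold for the others in this order. On tumor arrays 1, 2 and 3 this zero, at 170, 140 and 125, was itself below the lowest miRNA called well above background, at 691, 614 and 294. The bounds depended on the scaling, and green over red was not among the scalings used for them. Over 6 scalings the lowest bound against the mean of the strains was 4.23-fold for miR-30a-5p, 3.31-fold for miR-30b, 4.91-fold for miR-30c and 3.00-fold for miR-30d, and against FVB glands it was 4.52-fold, 3.31-fold, 6.39-fold and 2.99-fold, each with quantile normalization. For miR-30e only 3 of the 6 scalings gave a bound above 1 in either comparison.

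The tumor arrays as a whole were dim. Of the 334 miRNAs, 38, 15 and 64 were well above background on the arrays of tumors 1, 2 and 3, and 209 to 262 on the gland arrays. The lowest intensity of a miRNA called well above background was 691, 614 and 294 on these tumor arrays and 25.9 to 35.3 on the gland arrays, so the call stood for a higher signal on the tumor arrays. Of the 5 miRNAs with gland profiles like the members, miR-23a and miR-27a were well above background on tumor arrays 1 and 3, and miR-23b on tumor array 3, whereas let-7f and miR-194 were on none. Relative to the array median, miR-23a stood at 4.14, 2.92 and 4.80 on the tumor arrays and at 7.11 to 7.99 on the gland arrays. As it was not well above background on tumor array 2, no size is given for this difference.

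Marker miRNAs of most lists were called lower in tumors than in glands, and most of them were at background on the tumor arrays. Relative to the array median, the calls held for 9 of 10 epithelial, 4 of 4 stromal and smooth muscle, 5 of 6 blood and lymphoid and 3 of 3 skeletal muscle miRNAs, beside 52.5% of all 261 miRNAs. The directions depend on this zero, which moves all miRNAs together. Like the members, most of these miRNAs passed the filter through the gland arrays, so their lower calls are a description. On tumor arrays 1, 2 and 3, 1, 1 and 2 of the stromal, 1, 0 and 1 of the blood and 0, 0 and 2 of the muscle miRNAs were well above background, so no size is given for these differences. The endothelial miR-126-5p was called higher, although on tumor arrays it was never well above background and stood at 0.060, 0.21 and -0.070, beside -4.13 to -1.76 on the gland arrays. Against FVB glands, 10 of 10 epithelial, 4 of 4 stromal and 5 of 6 blood miRNAs were called lower, and of the 3 muscle miRNAs 1 was called lower and 1 higher. The summed level of the epithelial list was 4.50, 4.48 and 4.92 on the tumor arrays, led by miR-200a or miR-205, that of the stromal list 3.67, 3.35 and 4.39, led by miR-145, and that of the blood list 4.13, 3.05 and 3.34, led by miR-150 or miR-223. That of the muscle list was 1.73, 2.43 and 4.74, led by miR-206 or miR-133b. Tumor and gland cannot be told apart from slide and program version in these arrays, and the part of each in the low miR-30 signal was not tested.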

How the data were processed

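RNA of 8 glands and 3 tumors was labeled with Hy3 and/or Hy5, per the methods, and hybridized to a custom array designed from the miRBase 9.0 release. The scanner intensities were deposited by the authors as Feature Extraction output (version 9.5.1.1 for tumors, 10.5.1.1 for glands), after its background subtraction and dye normalization. The authors also deposited log2 values of the 1336 plus-strand mouse spots after a global median normalization. These equaled the log2 green intensity plus 1 constant per array.

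Here log2 green intensities were used minus the array median over these spots, without spots marked as outliers, and averaged per miRNA. The filter on MAS5 calls in the methods could not be repeated, and calls of well above background on at least 3 arrays stood in for it. Strains were compared with limma (moderated F-test and contrasts over 8 arrays) and tumors in a fit over 11 arrays and 4 groups, with Benjamini-Hochberg adjustment over 261 miRNAs and a threshold of 0.05. The number of arrays limits precision. Arrays of the same group differed by an SD of 0.426 to 0.877 (log2, over miRNAs). Without a known repeat hybridization to compare with, these values cannot tell whether a pair was 1 sample hybridized again.

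The members, the cell type lists and the tests were chosen with earlier results of these data known. The miRNAs named are all members, the 5 outside the family with the most similar gland profile, and the cell type lists. The alternatives were other scalings (75th percentile, median of those miRNAs that were well above background throughout, quantile, none), the deposited table, a normexp background with an offset of 50, green over red, other filters, a floor, outlier spots kept, Balb/C replicates 2 and 3 averaged, the replicate number or slide row as a block, an intensity trend, all 11 arrays in the strain fit, and each array left out. The fits were tested on simulated data. Probe edits were counted on the deposited probes. R 4.3.3, limma 3.58.1, Python 3.11.15, numpy 2.4.6, pandas 2.3.3 and matplotlib 3.10.9 were used.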

Additional observations from a re-analysis of the deposited data

Results flagged for a closer look

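The red channel of the scans, which entered no comparison above other than as an alternative, held signal of the family. All 5 members were well above background in red on every one of the 8 gland arrays, with 160 of 160 gland spots and 6 of 60 tumor spots called so. miR-30c and miR-30d, with 2 of 4 spots each on the array of tumor 1, met the rule of 50% of spots there in red, at 1.70 and 1.33 above the array median. The sources used here do not say what was labeled in this channel of these samples. In red, the levels of miR-30a-5p minus the array median were 6.29 and 6.03 in FVB, 6.16, 6.17 and 6.12 in Balb/C, and 6.05, 5.89 and 6.18 in FVB129B6 glands, and those of miR-30b were 6.24 and 6.10, 6.04, 6.27 and 6.11, and 6.10, 5.91 and 6.15. FVB overlapped both other strains for these 2 members. Those of miR-30d were 6.12 and 5.93 in FVB, 5.87, 5.72 and 5.87 in Balb/C, and 5.65, 5.61 and 5.80 in FVB129B6 glands, with FVB above both other strains as in green. Those of miR-30c were 6.62 and 6.63 in FVB, 6.44, 6.63 and 6.53 in Balb/C, and 6.18, 6.21 and 6.41 in FVB129B6 glands, where FVB overlapped Balb/C and lay above FVB129B6. Those of miR-30e were 3.23 and 2.48 in FVB, 3.45, 3.38 and 3.38 in Balb/C, and 3.16, 3.03 and 3.23 in FVB129B6 glands, where FVB lay below Balb/C and overlapped FVB129B6. These differences in red were not tested.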

How the results depend on the processing

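For the tumors, all 5 members were called lower than the mean of the strains and lower than FVB glands in 23 of 24 alternatives, leaving out any array included. The exception was green over red, with 4 called against the mean of the strains and 3 against FVB. Red is no common reference, as 160 of 160 gland and 6 of 60 tumor member spots were well above background in it. As no member was well above background in green in tumors, and all passed the filter through the glands, these calls say nothing about stability. The setting that asks for well above background on every array left no member to test for the tumors. Of 360 strain values of single members, 267 kept their direction and side of the threshold, 52 lost the call, 6 gained it and 35 changed sign. These include the values between Balb/C and FVB129B6, where there was no call to lose. For Balb/C against FVB, miR-30a-5p, miR-30b, miR-30c, miR-30d and miR-30e kept both in 13, 11, 19, 10 and 20 of 24 alternatives. For FVB129B6 against FVB they did so in 15, 15, 20, 13 and 22. miR-30e had no call to lose there either.

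By the F-test, where 4 members were called, 1 was called with the 75th percentile and with quantile normalization, 0 with the median of miRNAs well above background, normexp or green over red, and 2 with Balb/C replicates 2 and 3 averaged or all 11 arrays in the fit. For Balb/C against FVB (4 called), these settings gave 0, 1, 0, 0, 0, 2 and 2 in that order. For FVB129B6 against FVB (3 called), the 75th percentile and quantile gave 1 and the median of miRNAs well above background, normexp and green over red gave 0. Leaving out single arrays gave 1 to 3 calls by the F-test, 1 to 4 for Balb/C, 1 to 3 for FVB129B6 and 0 between Balb/C and FVB129B6. By the F-test 3 were called without FVB129B6 replicate 3, 2 without FVB replicate 2, and 1 without each other array. For Balb/C 4 were called without FVB129B6 replicates 2 or 3, 1 without FVB129B6 replicate 1 or Balb/C replicate 3, and 2 without each other array. For FVB129B6 1 was called without FVB129B6 replicates 1 or 2, 2 without either FVB array, and 3 otherwise.

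Without scaling 3 members were called in each contrast with FVB, all higher than FVB: miR-30a-5p, miR-30b, miR-30c, miR-30d and miR-30e differed by 0.75, 0.75, 0.38, 0.82 and 0.55 for Balb/C. For FVB129B6 the differences were 0.79, 0.97, 0.38, 0.85 and 0.43. The counts of members in this section stand without the share of all miRNAs called in each setting. They are therefore not a result about the family. With normexp, signs changed in Balb/C for miR-30a-5p (0.10), miR-30b (0.13), miR-30d (0.16) and miR-30e (0.066), and in FVB129B6 for miR-30a-5p (0.00026), miR-30b (0.23) and miR-30d (0.053). With quantile normalization they changed for miR-30d in Balb/C (0.034) and miR-30b in FVB129B6 (0.098), with green over red for miR-30d in Balb/C (0.19) and miR-30b (0.029) and miR-30d (0.13) in FVB129B6, and with the median of miRNAs well above background for miR-30b in FVB129B6 (0.084). Between Balb/C and FVB129B6, where nothing was called, signs changed to -0.047, -0.012 and -0.047 (miR-30a-5p, miR-30c and miR-30d, median of miRNAs well above background), -0.00096 and -0.0066 (miR-30a-5p and miR-30c, quantile), -0.034 and -0.034 (miR-30a-5p and miR-30d, no scaling), -0.043 (miR-30c, green over red), -0.055 and -0.032 (miR-30a-5p and miR-30d, without FVB129B6 replicate 2) and -0.026 (miR-30a-5p, without Balb/C replicate 1). Over the arrays left out one by one, these ran from -0.055 to 0.088 for miR-30a-5p and from -0.032 to 0.072 for miR-30d. miR-30e in Balb/C against FVB ran from -1.62 (without FVB replicate 2) to 0.0098 (without FVB replicate 1). Other than in the unscaled signal, the cause was not tested.

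Of the within-array differences, miR-30b minus miR-30d was called with green over red (exact permutation over the 3 strains, adjusted p = 0.021). Between FVB129B6 and FVB it changed sign to -0.10, its highest group becoming FVB, but this p is not for that pair of strains alone. Also with green over red, miR-30e minus miR-30c changed sign to -0.47 between Balb/C and FVB (adjusted p = 0.13, exact permutation over the 3 strains). Its means were 0.36 in FVB, -0.11 in Balb/C and -0.24 in FVB129B6. Green over red subtracts the difference in red, where the members also had signal. Without single arrays the difference between FVB129B6 and FVB ran from 0.073 to 0.17 for miR-30b minus miR-30d, passing without Balb/C replicate 2 (0.12, exact permutation adjusted p = 0.029), and from 0.23 to 0.58 for miR-30a-5p minus miR-30c. The difference between Balb/C and FVB ran from -0.51 to 0.85 for miR-30e minus miR-30c.

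The replicate numbers did not pair the samples. Once group means were subtracted, arrays of the same number had a mean correlation of 0.044 over 15 pairs, with a lowest of -0.28, and those of different numbers -0.022 over 30. With the replicate number as a block the F-test called 1 member, and 3 were called in each contrast with FVB, 0 between the other strains and 5 in each tumor contrast.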
